A study of Mus musculus with 2 samples.

Results

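The prohormone processing enzymes described here are the 6 genes Pcsk1, Pcsk2, Furin, Cpe, Cpd and Pam, taken by symbol from the 46984 features (mouse genes and the tdTomato transgene) of a single-cell RNA series on mouse pancreatic islet cells. A UMI, or unique molecular identifier, marks 1 captured RNA molecule, and levels are given in CPM, the UMIs of a gene per 1000000 UMIs of the cells summed. All 6 enzymes reached at least 5 CPM in the endocrine cells of at least 1 library.

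The series asked what becomes of islet endocrine cells that lack Isl1, which encodes a LIM-homeodomain transcription factor. The Isl1CKO library came from Neurod1 Cre/+; Isl1 f/f mice, in which both copies of Isl1 are floxed. The control library came from Neurod1 Cre/+; Isl1 f/+ mice, so both groups carry Cre, driven by Neurod1 in the endocrine lineage, and a tdTomato reporter, and control cells have 1 floxed copy themselves. Animals were 1 month old, 3 were pooled per genotype, islets were dissociated with actinomycin D, which blocks new transcription, and tdTomato+ cells were sorted and captured with a 10x 3′ kit. There is 1 library per genotype, so no difference between genotypes has a replicate check, no p-value is given, and every interval is a 95% interval of counting error only.

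Peptide hormones are made as inactive precursors and are cut to size in the Golgi and in the maturing secretory granule. The prohormone convertases Pcsk1 and Pcsk2 cut after pairs of basic residues: Pcsk1 with Pcsk2 turns proinsulin into insulin, and Pcsk2 releases glucagon from proglucagon. Furin, their relative in the trans-Golgi network, cuts precursors that leave by the constitutive route. Carboxypeptidase E (Cpe) then trims the basic residues left at the cut ends in the granule, carboxypeptidase D (Cpd) does so mainly in the trans-Golgi network, and Pam, which needs copper and ascorbate, turns a terminal glycine into an amide, as on pancreatic polypeptide and amylin.

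The enzymes lie on 6 chromosomes of the GRCm38 build (GENCODE vM21 positions): Pcsk1 at chr13:75089826-75134861, Pcsk2 at chr2:143546156-143816285, Furin at chr7:80388585-80405436, Cpe at chr8:64592542-64693054, Cpd at chr11:76778424-76847018 and Pam at chr1:97795114-98095646. Pcsk1 and Pcsk2 are on the plus strand and the other 4 on the minus strand. Of the granule convertases, Pcsk1 was higher in cells with insulin than in cells with glucagon RNA and Pcsk2 was lower, though most cells of both kinds held Pcsk2. The upstream sequence of both is shown, from 250 to 51 bases before the transcription start, 5′ to 3′ on the gene's strand, from RefSeq on GRCm38.p6. Capitals mark the palindrome TGACGTCA, the cAMP-response element.

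Pcsk1, chr13:75089607-75089806, plus strand: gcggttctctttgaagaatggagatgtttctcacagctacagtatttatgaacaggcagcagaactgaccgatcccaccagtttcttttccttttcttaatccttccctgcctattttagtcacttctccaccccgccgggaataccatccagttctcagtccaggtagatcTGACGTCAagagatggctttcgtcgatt
Pcsk2, chr2:143545883-143546082, plus strand: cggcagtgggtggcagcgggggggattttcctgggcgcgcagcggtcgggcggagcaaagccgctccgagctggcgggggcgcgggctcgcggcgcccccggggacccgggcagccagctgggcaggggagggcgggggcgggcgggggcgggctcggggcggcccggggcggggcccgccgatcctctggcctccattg

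These 2 windows differ in base composition: G and C made up 46.5% of the Pcsk1 window, with 7 CpG dinucleotides, and 82.5% of the Pcsk2 window, with 27. TGACGTCA, searched on both strands from 250 bases before to 50 after the start, was in 1.79% of 32851 RefSeq promoters and, among the 5 members with an entry (Cpe has none; 7 promoters in all), only in that of Pcsk1, 78 bases before the start. TAAT, a core that homeodomain proteins bind and which also lies inside TAATTA, was in 58.0% of promoters and in those of Pcsk1, Cpd and Furin. TAATTA was in 5.29% of promoters and in none of the members. A match is a description of these letters and not a binding site.

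The Isl1CKO library held 86086781 UMIs and the control library 48685758. After cells under 1000 UMIs or 500 genes or over 15% mitochondrial UMIs, marked doublets, and acinar-like, macrophage-like and low-UMI clusters were left out, 7509 Isl1CKO and 3867 control endocrine cells remained, with medians of 8501 and 8902 UMIs per cell. The doublet caller marked 0 Isl1CKO cells, so it did not work there, against 249 of 4219 control cells. The libraries shared 7 barcodes among their endocrine cells. Isl1 was at 306.6 CPM in Isl1CKO cells and 382 CPM in control cells. Where the floxed part lies is not given in the sources used here, and 3′ counts outside it would check nothing. The control library is labelled as male, yet 23.2% of its endocrine cells held Xist and no Y-linked UMI, while 41.4% held Y-linked UMIs and no Xist. In Isl1CKO, labelled as both sexes, these female cells were 66.5% and the male cells 20.4%.

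Cells were grouped by the hormone they carried, Gcg, Sst, Ppy, insulin (Ins1 and Ins2 together) or Ghrl at 1% or more of the cell's UMIs. Isl1CKO had 898 insulin-only cells, 170 Gcg-only cells and 6426 cells with no hormone at that limit. Control had 176 insulin-only, 1528 Gcg-only, 423 Ppy-only and 210 Sst-only cells, 1443 cells with 2 or more hormones and only 87 with none. Sst-only and Ppy-only cells numbered 3 and 2 in Isl1CKO and were not compared. The 6426 Isl1CKO cells without hormone were further split, by a rule chosen after values of these data had been seen, by UMIs of transcription factors of alpha, beta and delta cells: 2527 held Irx1 or Irx2, 900 Pdx1, 238 Hhex, 388 several of these, and 2373 none of the 4.

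The groups are named by hormone and not as cell types, because Isl1CKO cells differed from control cells in defining markers. All 10 beta cell markers had a UMI in Isl1CKO insulin-only cells and 8 reached 5 CPM. Ins1 and Ins2 are among them and define the group, so their part in these counts was fixed in advance. Nkx6-1, Slc2a2 and Pdx1 were at 134, 81.4 and 52.4 CPM in Isl1CKO, against 419, 731 and 358 CPM in control. Mafa and Ucn3, the beta cell markers below that level, were at 0.151 and 0.906 CPM in Isl1CKO, against 15.1 and 208 CPM in control. In Gcg-only cells Irx1 was at 164 CPM in Isl1CKO and 192 CPM in control. The hormones themselves took 17.3% of UMIs in Isl1CKO insulin-only cells, against 67.4% in control ones, and 2.75% in Isl1CKO Gcg-only cells, against 38.5% in control ones. A CPM therefore depends on how totals are scaled, and the values below are scaled with TMM factors, which take most genes to be level. Summed acinar markers were at 125 CPM in Isl1CKO and 36.5 CPM in control endocrine cells, 10 of 10 with a UMI in both, and macrophage markers at 84.0 and 194 CPM. Their part in the results was not tested.

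Pcsk1 was the enzyme that set the hormone groups furthest apart, and it was lower in Isl1CKO in insulin-only cells, in cells without hormone and over all endocrine cells. It had 93.4 CPM in Isl1CKO insulin-only cells (88.3 to 98.8, 1238 UMIs) and 403 CPM in control insulin-only cells (374 to 434, 694 UMIs). It was nearly absent from Gcg-only cells of both libraries, with 6 UMIs in 170 Isl1CKO cells and 4 UMIs in 1528 control cells, under the 5 CPM needed to be measured. In male Gcg-only cells alone it was measured and higher in Isl1CKO, at 9.68 CPM from 5 UMIs of 29 Isl1CKO cells, against 0.202 CPM from 1 UMI of 580 control cells, a log2 ratio of 4.85 (2.43 to 11.1). The control groups with other hormones lay in between, at 92.0 CPM in Sst-only cells, 64.3 CPM in Ppy-only cells and 55.4 CPM in cells with 2 or more hormones. Ordered by level, control insulin-only cells came far ahead, followed by Isl1CKO insulin-only and control Sst-only cells, whose counting intervals overlap. The intervals of control Ppy-only cells and control cells with 2 or more hormones overlap as well.

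**Figure D1:**
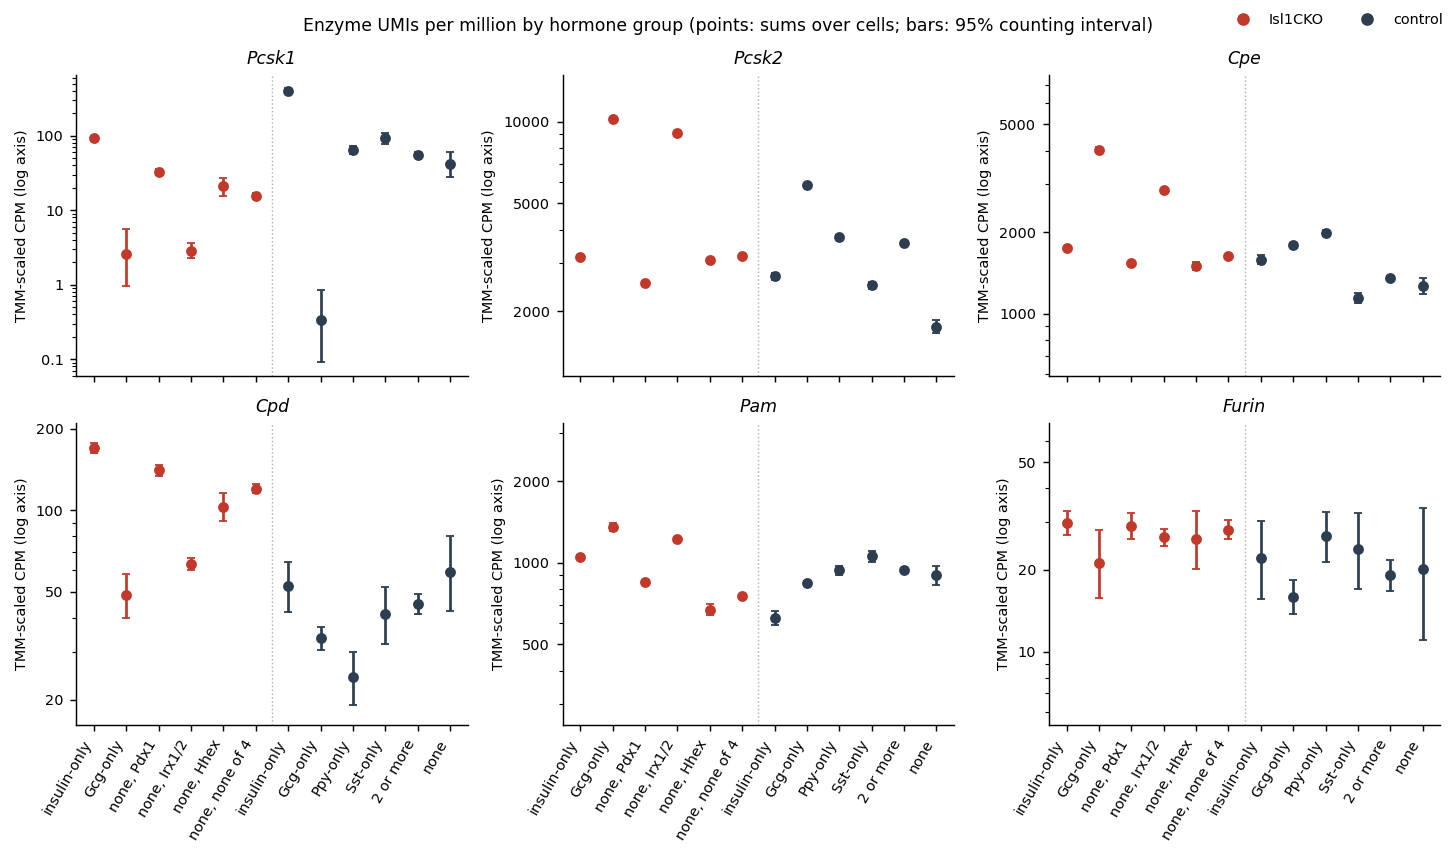
TMM-scaled CPM of each enzyme (log axis) in the hormone groups of Isl1CKO (red, left of the dotted line) and control (dark, right), as sums over cells with 95% counting intervals; labels starting with none are cells without hormone, split in Isl1CKO by lineage factors, and the Isl1CKO cells with several factors are not drawn. Pcsk1 spans 0.333 to 403 CPM across the groups, while Furin stays between 15.9 and 29.9 CPM.

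In insulin-only cells the Pcsk1 ratio of Isl1CKO over control was -2.11 on the log2 scale (-2.24 to -1.97), or 4.32-fold lower. A gene was called when it differed at least 2-fold with an interval clear of 1, and 16.2% of the 10342 genes measured were called in this comparison, 9.61% higher and 6.61% lower. The split moves with the scaling: 994 genes were called higher and 684 lower here, against 6296 and 99 with unscaled totals and 724 and 1185 on totals that leave out hormone genes. Of the 6 enzymes 2 were called, Pcsk1 lower and Cpd higher, and with unscaled totals the other enzymes passed 2-fold as well, all higher, among them Furin at 1.53. With totals not scaled at all, which moves all log2 ratios by 1.13 here, Pcsk1 was still lower at -0.98 but under 2-fold. In male cells alone it had 158 CPM in Isl1CKO and 413 CPM in control, a log2 ratio of -1.39. The control had 19 female insulin-only cells, too few to compare.

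The Isl1CKO insulin-only cells carried far less insulin per cell, with a median of 5.08% of UMIs in Isl1CKO against 63.5% in control, so Pcsk1 was also read in cells rich in insulin in both libraries. This comparison was added after the data had been seen, and its CPM leave the hormone genes out of the total. Among cells with 20% or more of their UMIs from insulin, Pcsk1 was at 238 CPM in 142 Isl1CKO cells and 619 CPM in 155 control cells, a log2 ratio of -1.38 (-1.57 to -1.20). The load is not matched in this open range, where the median insulin share was 29.9% in Isl1CKO and 65.5% in control. Nor is sex, with 65 male and 46 female cells in Isl1CKO and 86 and 14 in control. In male cells alone Pcsk1 was at 362 CPM in Isl1CKO and 648 CPM in control, under 2-fold apart. Between 20% and 50% insulin, with medians of 28.5% in 130 Isl1CKO cells and 37.9% in 28 control cells, Pcsk1 was at 223 CPM in Isl1CKO and 567 CPM in control, a log2 ratio of -1.36 (-1.66 to -1.02). Sex was not matched there either, with 58 male and 45 female cells in Isl1CKO and 14 and 5 in control.

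Within Isl1CKO, Pcsk1 went up with insulin: 71.9 CPM in cells with 1 to 2% insulin, 98.6 at 2 to 5%, 92.8 at 5 to 10%, 129.96 at 10 to 20% and 238 at 20% or more. The mix of sexes moved with these ranges, with 55 male and 113 female cells in the lowest and 65 male and 46 female cells in the highest. In male cells alone Pcsk1 was at 112, 167, 170.0, 189 and 362 CPM over the 5 ranges, and in female cells at 37.0, 62.3, 58.7, 90.5 and 67.4 CPM, so the highest range held the most Pcsk1 in male but not in female cells. Pcsk2 showed no such gradient and stayed between 3986 and 4112 CPM over the same 5 ranges.

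**Figure D2:**
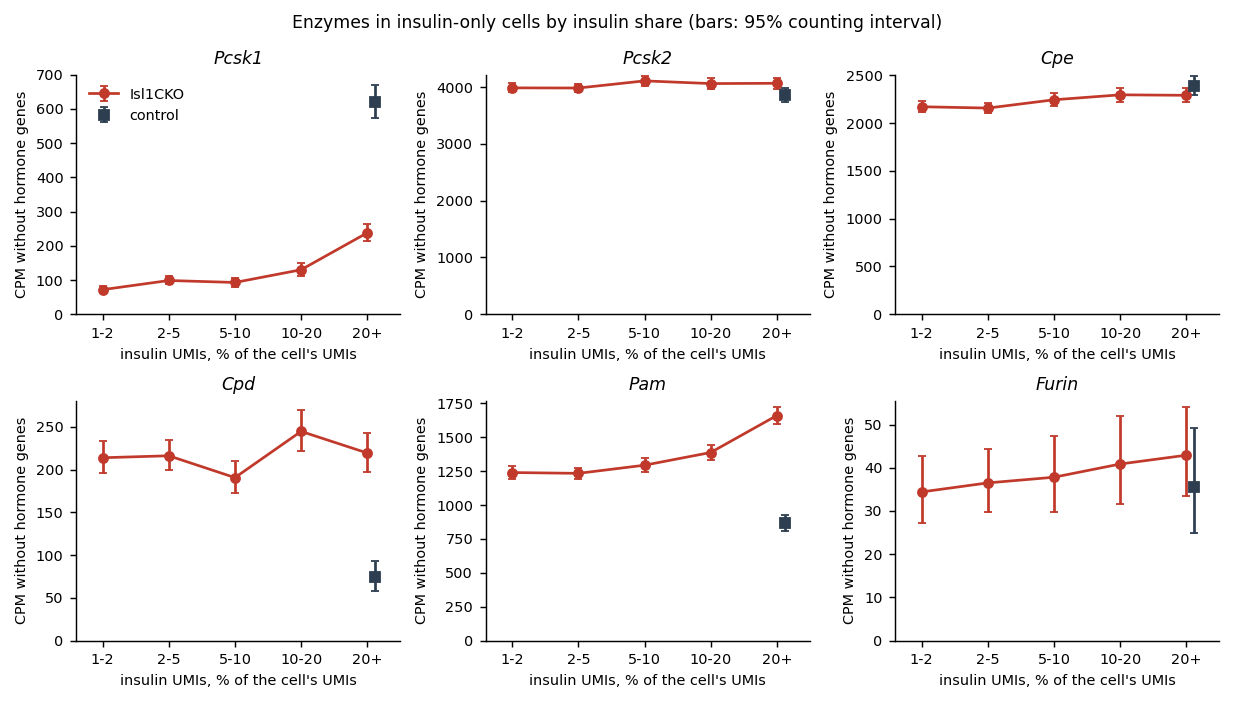
CPM of each enzyme, on totals without hormone genes, in insulin-only cells binned by the insulin share of their UMIs, with 95% counting intervals, for Isl1CKO (red) and control (dark). At 20% or more insulin Pcsk1 is at 238 in Isl1CKO and 619 in control, and Cpd at 219 in Isl1CKO and 74.1 in control, with sexes not matched.

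Shares of cells told the same order for Pcsk1. With every cell thinned to 3000 UMIs, at least 1 Pcsk1 UMI was in 18.9% of 877 Isl1CKO insulin-only cells (16.4 to 21.7%) and in 49.7% of 171 control insulin-only cells (42.0 to 57.4%). Without thinning the shares were 50.6% and 89.8%, at median depths of 12875.5 and 19970.5 UMIs. Among Gcg-only cells, 0 of 164 thinned Isl1CKO cells had a Pcsk1 UMI (upper limit 2.22%), and 1 of 1481 control cells did. The macrophage-like cluster gave 3.33% of 30 thinned Isl1CKO cells and 9.09% of 33 thinned control cells, at median depths of 3466 and 6187 UMIs before thinning. It may be mixed and is not a clean background. With doublets kept, 4 control and 16 Isl1CKO cells clustered as macrophage. A separate unnamed cluster of 36 control and 31 Isl1CKO cells had Sparc, Apoe and Top2a among its top genes. Pcsk1 in the macrophage-like cluster was at 28.5 CPM in Isl1CKO and 78.3 CPM in control, on unscaled totals. Free RNA, read from barcodes under 100 UMIs, held Pcsk1 at 19.97 CPM in Isl1CKO and 28.2 CPM in control, and Gcg-only cells held 12.7% and 0.954% of those levels.

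Taken over all endocrine cells, Pcsk1 was at 25.7 CPM in Isl1CKO and 56.0 CPM in control, a log2 ratio of -1.13 (-1.22 to -1.04), and was called lower. In that comparison 12.9% of 10423 genes were called, 6.67% higher and 6.25% lower (695 and 651 genes, 2368 and 282 with unscaled totals, 527 and 1122 without hormone genes), and Pcsk1 and Cpd were again the enzymes called. This value depends on the cells sampled: it was -0.59 with unscaled totals, -0.30 in male cells and -1.46 in female cells. Cells without hormone had 13.5 CPM in Isl1CKO and 41.8 CPM in control, where the sum rests on 29 UMIs of 87 cells. That ratio was -1.68 on the log2 scale, and -0.93 in male cells, with an interval that includes 0 and 29 control cells behind it. The 2 groups without hormone were unlike in make-up, with Irx1 at 87.3 CPM in Isl1CKO and 7.21 CPM in control.

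Pcsk2 was higher in Gcg-only than in insulin-only cells, the reverse of Pcsk1, and was not called lower in Isl1CKO in any comparison of genotypes. It was at 10269 CPM in Isl1CKO Gcg-only cells and 5829 CPM in control Gcg-only cells, a log2 ratio of 0.82 (0.80 to 0.84), under 2-fold. It passed 2-fold with unscaled totals, at 1.09, and in female cells, at 1.13. In insulin-only cells it had 3173 CPM in Isl1CKO and 2687 CPM in control, a log2 ratio of 0.24 whose sign turned to -0.06 when each cell was weighted alike and which passed 2-fold, at 1.37, with unscaled totals. The other control groups ran at 3755 CPM in Ppy-only, 3560 CPM in cells with 2 or more hormones, 2491 CPM in Sst-only and 1753 CPM in cells with none. The order of Pcsk2 in control cells thus had Gcg-only cells highest and cells without hormone lowest, with no overlap of intervals between those neighbours. After thinning, Pcsk2 was found in at least 95.9% of cells in every endocrine group, and also in 15 of 30 Isl1CKO and 22 of 33 control cells of the macrophage-like cluster, which may be mixed. Free RNA held Pcsk2 at 4101 CPM in Isl1CKO and 2805 CPM in control, on unscaled totals. Its part in these shares was not tested.

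Within each library the convertases were set against each other by hormone. In Isl1CKO, insulin-only over Gcg-only cells gave a log2 ratio of 4.95 for Pcsk1 and -1.69 for Pcsk2. Of the 6 enzymes 4 were called there, Pcsk1 and Cpd higher and Pcsk2 and Cpe lower, with Cpd at 1.79 (1.53 to 2.09). Of all genes 14.2% were called, 9.54% higher and 4.70% lower, or 978 and 482 genes (1844 and 288 without hormone genes). In control the ratios were 9.92 for Pcsk1, from 694 and 4 UMIs, and -1.12 for Pcsk2, against 17.2% of genes called, 8.22% higher and 8.95% lower, or 856 and 932 genes (292 and 3282 with unscaled totals, 1162 and 809 without hormone genes). Of the 6 enzymes 2 were called in control, Pcsk1 and Pcsk2, and Cpd was at 0.65, not called. In the control, but not in Isl1CKO, the Pcsk2 ratio came under 2-fold when hormones were left out of the totals or each cell was weighted alike. The cells behind these groups share their library, so they are not replicates.

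The balance between the convertases needs no scaling, as both counts come from the same cells. Insulin-only cells had 29.4 Pcsk1 UMIs per 1000 Pcsk2 UMIs in Isl1CKO (27.8 to 31.2) and 150.0 in control (138 to 163), a 5.10-fold lower balance in Isl1CKO. The mix of sexes was unlike in these cells. Male insulin-only cells held 685 Pcsk1 and 12263 Pcsk2 UMIs in Isl1CKO, against 419 and 2616 in control, a smaller gap in balance. At 20% or more insulin the balance was 58.5 in Isl1CKO and 160.2 in control, with an unlike mix of sexes. Male cells there held 299 Pcsk1 and 3083 Pcsk2 UMIs in Isl1CKO, against 399 and 2371 in control, a smaller gap in balance. Gcg-only cells had 0.253 in Isl1CKO and 0.0570 in control, from 6 and 4 Pcsk1 UMIs. Control Sst-only cells had 36.9, Ppy-only cells 17.1 and cells with 2 or more hormones 15.6. The ratio of Isl1CKO insulin-only cells thus lay between those of control Ppy-only and Sst-only cells. Both convertases were found in the same thinned cell in 18.7% of Isl1CKO and 47.4% of control insulin-only cells, and free RNA of each library held both.

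**Figure D3:**
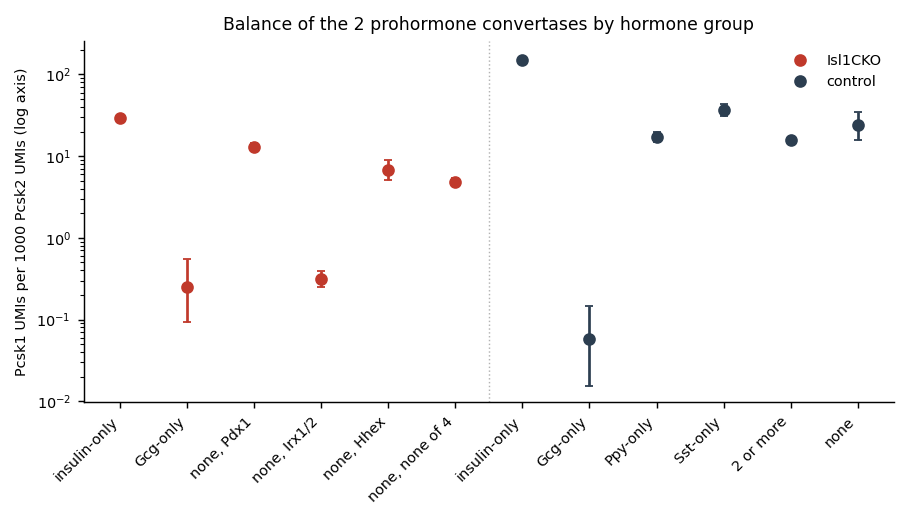
Pcsk1 UMIs per 1000 Pcsk2 UMIs (log axis) in each hormone group of Isl1CKO (red) and control (dark), with 95% counting intervals. Insulin-only cells sit at 29.4 in Isl1CKO and 150.0 in control, with sexes not matched, and Gcg-only cells are lowest in both libraries.

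Cells without hormone in Isl1CKO differed in their convertases by lineage factor. Cells with Irx1 or Irx2 had 2.87 CPM of Pcsk1 and 9115 CPM of Pcsk2, against 2.60 and 10269 CPM in Isl1CKO Gcg-only cells. Cells with Pdx1 had 32.7 CPM of Pcsk1 and 2536 CPM of Pcsk2, and cells with Hhex 20.9 and 3082 CPM. Cells with none of the 4 factors had 15.6 CPM of Pcsk1 and 3191 CPM of Pcsk2. The balance of Pcsk1 per 1000 Pcsk2 was 0.315 with Irx1 or Irx2, 12.9 with Pdx1, 6.80 with Hhex and 4.88 with none. Pdx1 cells over Irx1 or Irx2 cells gave log2 ratios of 3.49 for Pcsk1, -1.85 for Pcsk2 and 1.15 for Cpd, all called, where 8.95% of genes were called, 5.77% higher and 3.18% lower, or 590 and 325 genes (919 and 242 with unscaled totals, 957 and 234 without hormone genes). Cpe at -0.90, Pam at -0.52 and Furin at 0.14 were not called. In female cells Cpd was at 0.94, not called, and Cpe was called lower at -1.01. In male cells Cpd was called higher at 1.55.

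Set against the control cells with the matching hormone, these groups differed in which enzymes passed. Isl1CKO Irx1 or Irx2 cells without hormone over control Gcg-only cells had 5 enzymes measured and none called, with log2 ratios of 0.64 for Pcsk2, 0.67 for Cpe, 0.91 for Cpd, 0.53 for Pam and 0.73 for Furin, while 14.6% of genes were called, 7.68% higher and 6.94% lower, or 792 and 715 genes (1820 and 357 with unscaled totals, 520 and 1426 without hormone genes). With unscaled totals 4 of the 5 enzymes passed 2-fold, Pcsk2 at 1.05, Cpe at 1.08, Cpd at 1.32 and Furin at 1.14. In male cells Pam was called higher at 1.12, and so was Pcsk1 at 3.91 (2.33 to 10.2), from 47 Isl1CKO and 1 control UMI, and in female cells Cpd was called higher at 1.03. Isl1CKO Pdx1 cells without hormone over control insulin-only cells had Pcsk1 called lower at -3.62 and Cpd higher at 1.41, with 18.4% of genes called, 10.7% higher and 7.73% lower, or 1110 and 805 genes (8058 and 113 with unscaled totals, 846 and 1264 without hormone genes). Pcsk2 was -0.08 and Cpe -0.05 in that comparison, against 1.31 and 1.35 with unscaled totals, with which Pam and Furin passed 2-fold as well, at 1.83 and 1.76. All comparisons between genotypes share the same 2 libraries. Over all cells without hormone, Pcsk2 had 5605 CPM in Isl1CKO and 1753 CPM in control, a log2 ratio of 1.68 called higher, where 13.5% of genes were called, 7.91% higher and 5.56% lower, or 820 and 577 genes (633 and 751 with DESeq2 size factors, 412 and 1268 with unscaled totals). The control sum there comes from 87 cells with a median of 5517 UMIs. The groups were also unlike in make-up, with Irx1 at 87.3 CPM in Isl1CKO and 7.21 CPM in control. Isl1 was at 41.8 CPM in these control cells, against 165 to 462 CPM in the other control groups. The part of this make-up in the ratio was not tested.

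Furin was the flattest of the enzymes. It ran from 21.2 CPM in Gcg-only to 29.9 CPM in insulin-only cells of Isl1CKO, and from 15.9 CPM in Gcg-only to 26.6 CPM in Ppy-only cells of control. Most of these intervals overlap. Its level over all endocrine cells was 27.7 CPM in Isl1CKO and 19.2 CPM in control, a log2 ratio of 0.53 (0.40 to 0.67) that was not called. With unscaled totals the ratio was 1.07 and would pass. At 20% or more insulin it was at 42.9 CPM in Isl1CKO and 35.6 CPM in control, and the interval of that ratio, -0.33 to 0.89 on the log2 scale, includes 0.

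Cpe, the main granule carboxypeptidase, differed most in Gcg-only cells. It had 4035 CPM in Isl1CKO Gcg-only cells (3954 to 4118) and 1799 CPM in control ones (1775.5 to 1823.5), a log2 ratio of 1.17, or 2.24-fold higher. It was the only member called of the 5 measured in Gcg-only cells, where 20.1% of 10305 genes were called, 9.07% higher and 11.0% lower, or 935 and 1135 genes (1475 and 685 with unscaled totals, 522 and 2393 without hormone genes). The call was lost on totals that leave out hormone genes, at 0.77, and in male cells, also at 0.77, while female cells gave 1.42. Pcsk2 in the same cells gave 0.23 in male and 1.13 in female cells.

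In the other comparisons of genotypes Cpe was not called. It had 2120 CPM in Isl1CKO and 1595 CPM in control over all endocrine cells, a log2 ratio of 0.41. Insulin-only cells had 1745 CPM in Isl1CKO and 1585 CPM in control, a log2 ratio of 0.14 that turned to -0.07 with hormones left out of the totals and passed 2-fold, at 1.27, with unscaled totals. Isl1CKO cells without hormone had 2868 CPM with Irx1 or Irx2, 1535 with Pdx1, 1502 with Hhex and 1631 with none of the 4. Control cells had 1983 CPM in Ppy-only, 1357 in cells with 2 or more hormones, 1143 in Sst-only and 1265 in cells with none. In Isl1CKO, Gcg-only cells thus held the most Cpe, and insulin-only over Gcg-only cells gave -1.21, called lower, against -0.18 in control, not called. The Isl1CKO call was lost without hormone genes in the totals, at -0.87, and in male cells, at -0.79. The difference between those ratios was not tested.

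Cpd was higher in Isl1CKO and passed the 2-fold limit in insulin-only cells and over all endocrine cells. Insulin-only cells had 169 CPM in Isl1CKO (163 to 177, 2246 UMIs) and 52.3 CPM in control (42.0 to 64.3, 90 UMIs). The log2 ratio was 1.68 (1.39 to 2.02), or 3.21-fold higher. Over all endocrine cells it was at 107 CPM in Isl1CKO and 39.1 CPM in control, a log2 ratio of 1.46 (1.37 to 1.55). Both calls stood in every alternative, with male cells at 1.498 and female cells at 1.40 over all endocrine cells and male insulin-only cells at 1.93. At 20% or more insulin Cpd was at 219 CPM in Isl1CKO and 74.1 CPM in control, a log2 ratio of 1.55 (1.20 to 1.94). Between 20% and 50% insulin it was at 224 CPM in Isl1CKO and 99.8 CPM in control, where it rests on 19 UMIs, a log2 ratio of 1.10 (0.50 to 1.92).

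The order of Cpd by group differed from that of Cpe. In Isl1CKO it was highest in insulin-only cells, then at 140.1 CPM in Pdx1 cells, 119.8 CPM in cells with none of the 4 factors, 103 CPM with Hhex, 63.3 CPM with Irx1 or Irx2 and 48.5 CPM in Gcg-only cells. In control it ran at 59.2 CPM in cells with no hormone, 45.2 CPM with 2 or more, 41.2 CPM in Sst-only, 33.7 CPM in Gcg-only and 24.2 CPM in Ppy-only cells. Many of the control intervals overlap, as they rest on 41 to 533 UMIs. In Gcg-only cells the log2 ratio of Isl1CKO over control was 0.54 (0.21 to 0.83) and in cells without hormone 0.69 (0.28 to 1.20), neither of them called. After thinning, Cpd was found in 40.9% of Isl1CKO insulin-only cells (37.7 to 44.3%) and 8.19% of control ones (4.55 to 13.4%), and in 6 of 30 Isl1CKO and 7 of 33 control macrophage-like cells. Hormones took 17.3% of the Isl1CKO and 67.4% of the control UMIs in these insulin-only cells, and their part in the gap between these shares was not tested.

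The ratio of the carboxypeptidases, from the same cells, shifted as well. Insulin-only cells had 97.1 Cpd UMIs per 1000 Cpe UMIs in Isl1CKO and 33.0 in control, a 2.94-fold difference. The ratio over all endocrine cells was 50.7 in Isl1CKO and 24.5 in control. Gcg-only cells went the other way, with 12.0 in Isl1CKO and 18.7 in control. Cells without hormone had nearly equal ratios, at 45.9 in Isl1CKO and 46.8 in control.

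**Figure D4:**
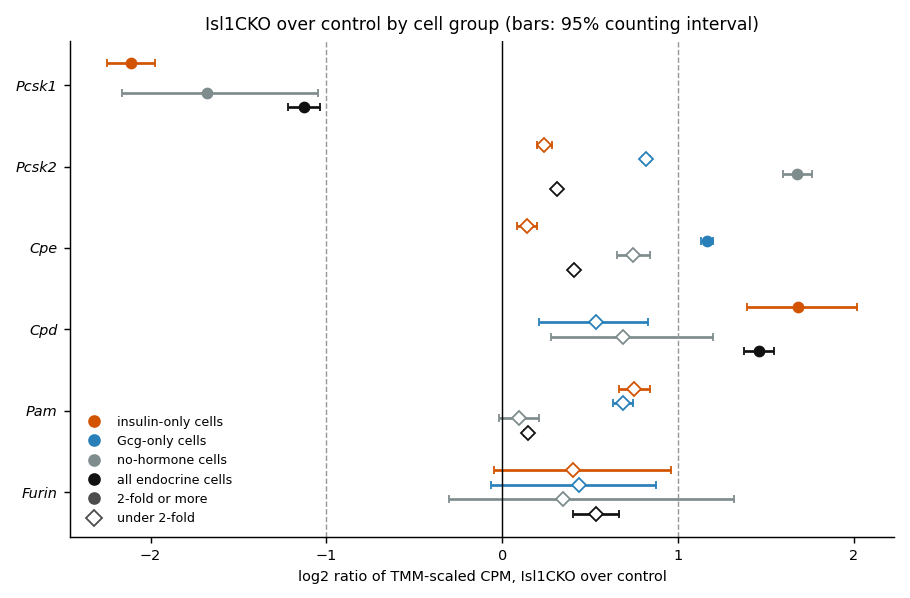
Log2 ratio of Isl1CKO over control for each enzyme in insulin-only, Gcg-only, no-hormone and all endocrine cells, with 95% counting intervals; filled circles are at least 2-fold with an interval clear of 0, open diamonds are not. Pcsk1 lies lowest in insulin-only cells at -2.11 and Cpd highest there at 1.68, and Pcsk1 is not drawn for Gcg-only cells, where it was not measured.

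Pam, the amidating enzyme, was not called between genotypes in any hormone group. Insulin-only cells had 1053 CPM in Isl1CKO (1035.5 to 1070.5) and 625 CPM in control (588 to 664), a log2 ratio of 0.75. It passed 2-fold there with unscaled totals, at 1.88, and in male cells, with 1490 CPM in Isl1CKO and 584 CPM in control. Gcg-only cells had 1358 CPM in Isl1CKO and 843 CPM in control, a log2 ratio of 0.69. Over all endocrine cells the values were 988 and 893 CPM, a log2 ratio of 0.15, whose sign turned with hormones left out of the totals (-0.06), with each cell weighted alike (-0.11) and in female cells (-0.19). In control the levels were 1056 CPM in Sst-only, 942 CPM in cells with 2 or more hormones, 937 CPM in Ppy-only and 899 CPM in cells with none, of which the last 3 have overlapping intervals. Control insulin-only cells were lowest, and among Isl1CKO cells those with Hhex, at 671 CPM, where 198 of 238 cells were female. Female Isl1CKO Pdx1 cells without hormone, scaled among female cells, were at 665 CPM.

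The level of Pam in Isl1CKO split by the sex of the cells. On totals that leave out hormone genes, male cells had 1778 CPM and female cells 897 CPM over all Isl1CKO endocrine cells, a log2 ratio of 0.99. Male cells were higher in each of these Isl1CKO groups: 1978 and 890 CPM in insulin-only cells, 1699 and 1226 CPM in Gcg-only cells, 1885 and 989 CPM in Irx1 or Irx2 cells without hormone and 1588 and 812 CPM in Pdx1 cells without hormone, male before female. Control cells showed no such gap, with 1250 CPM in male and 1234 CPM in female cells over all endocrine cells (log2 ratio 0.02, -0.02 to 0.06) and 1116 and 1149 CPM in Gcg-only cells.

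Pcsk1 split by sex too, with 61.0 CPM in male and 17.0 CPM in female Isl1CKO endocrine cells, a 3.58-fold difference. Isl1CKO insulin-only cells had 210 CPM in male and 60.1 CPM in female cells, with median insulin shares of 6.85% and 4.61%. In control, Pcsk1 was at 88.0 CPM in male and 56.1 CPM in female cells over all endocrine cells, but at 108 and 122 CPM in Sst-only cells, 88.1 and 82.3 CPM in Ppy-only cells and 74.4 and 82.0 CPM in cells with 2 or more hormones, where the intervals of all 3 ratios include 0. Cpe, Cpd and Furin differed less: over all Isl1CKO cells they had 2497 and 2554, 131 and 128, and 34.7 and 32.0 CPM, male before female.

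Many genes differed between male and female Isl1CKO cells. Of 10696 genes 12.2% were called in all Isl1CKO endocrine cells, 7.71% higher in male cells, among them Pcsk1 but not Pam at 1.98-fold. In Isl1CKO insulin-only cells 13.1% were called, 8.74% higher in male cells, among them both enzymes. In control 1.12% of 10890 genes were called, 0.808% higher in male cells, and no enzyme. A cell was called from any UMI of Xist or of the Y-linked genes without the other. In control 1601 of 3867 endocrine cells were called male and 897 female, the latter against its male label, and the rest had no call. How many calls were wrong was not tested. Since 3 animals were pooled per library, male and female cells, if called rightly, come from different animals, and sex and animal cannot be told apart. The sex split was chosen for description after the data had been seen.

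**Figure D5:**
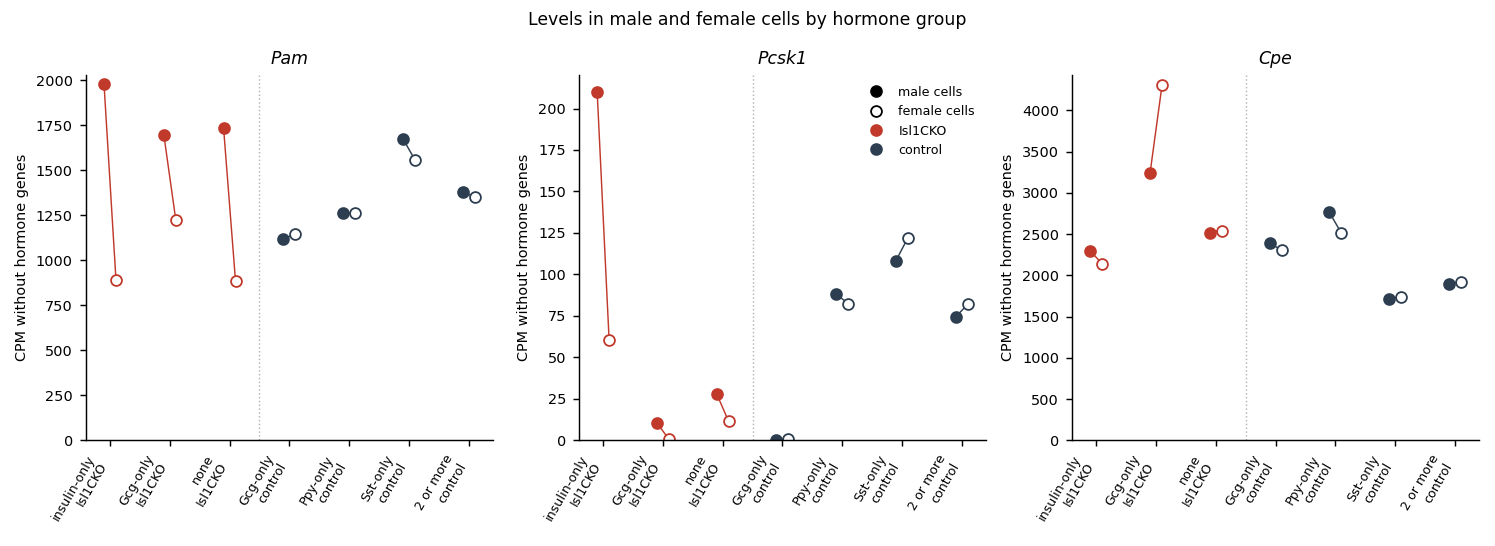
CPM of Pam, Pcsk1 and Cpe, on totals without hormone genes, in male (filled) and female (open) cells of each hormone group, Isl1CKO (red) left of the dotted line and control (dark) right. Pam is at 1978 in male and 890 in female Isl1CKO insulin-only cells, while in control Gcg-only cells it is at 1116 and 1149.

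Set against the hormone it works on, the enzymes had higher ratios in Isl1CKO. The hormones defined the groups, so these ratios are a description. Gcg-only cells had 396 Pcsk2 and 156 Cpe UMIs per 1000 Gcg UMIs in Isl1CKO, against 12.5 and 3.87 in control. Insulin-only cells had 0.776 Pcsk1 UMIs per 1000 insulin UMIs in Isl1CKO and 0.310 in control. Gcg was at 25917 CPM in Isl1CKO and 465316 CPM in control Gcg-only cells, and Ins2 at 102941 and 1033060 CPM in insulin-only cells, where scaled values can pass 1000000.

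Each granule convertase has a known partner. Pcsk1n, which encodes the Pcsk1 inhibitor proSAAS, was at 2191 CPM in Isl1CKO and 3405 CPM in control insulin-only cells, a log2 ratio of -0.64, and at 5276 and 11424 CPM in Gcg-only cells, -1.11, called lower, but under 2-fold with unscaled totals, at -0.85. Scg5, the chaperone of Pcsk2, was at 4514 CPM in Isl1CKO and 4918 CPM in control Gcg-only cells, -0.12. Pcsk2 per 1000 Scg5 UMIs was accordingly 2275 in Isl1CKO and 1185 in control Gcg-only cells. Pcsk1 per 1000 Pcsk1n UMIs was 42.6 in Isl1CKO and 118 in control insulin-only cells.

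Lists of the other genes of the pathway were read by their counts, with Isl1CKO over control throughout. Of all genes, 12.9% were called over all endocrine cells (6.67% higher, 6.25% lower) and 16.2% in insulin-only cells. In Gcg-only cells 20.1% were called (9.07% higher, 11.0% lower). These shares move with the scaling. Of 8 other convertases and partners, 7 were measured in insulin-only cells and none called (median log2 ratio -0.48, against 0.03 over all genes), and 5 in Gcg-only cells with Pcsk6 called higher and Pcsk1n lower. Of 8 other carboxypeptidase and terminal modification genes, 4 were measured over all endocrine cells and Cpm and the glutaminyl cyclase Qpct were called lower, at 1.38 and 2.72 CPM in Isl1CKO against 5.93 and 7.57 CPM in control. With unscaled totals Qpct came under 2-fold, at -0.94. The 5 signal peptidase subunits had none called in insulin-only cells (median -0.55) and Sec11c called higher in Gcg-only cells (median 0.77). Of the 19 genes of the vacuolar proton pump, which acidifies the granule, 16 were measured, with none called over all endocrine cells or in insulin-only cells (medians 0.21 and -0.13) and Atp6ap1 and Atp6ap2 higher in Gcg-only cells (median 0.52, against -0.03 over all genes). On totals without hormone genes Pcsk6, Sec11c and Atp6ap1 came under 2-fold in Gcg-only cells, at 0.76, 0.91 and 0.71.

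Convertases need calcium, and Pam needs copper. Of 6 genes of calcium and zinc supply, 3 were called lower in insulin-only cells, where 6.61% of all genes were, a share that moves with the scaling: the granule zinc transporter Slc30a8 was at 271 CPM in Isl1CKO and 824 CPM in control, and the calcium pump genes Atp2a2 and Atp2a3 at 251 and 44.98 CPM in Isl1CKO and 530 and 105 CPM in control. With unscaled totals these ratios came to -0.48, 0.05 and -0.10, so the direction of Atp2a2 turned. Of 9 copper and ascorbate genes 7 were measured: the copper transporter gene Slc31a2 was called lower over all endocrine cells, at 13.4 CPM in Isl1CKO and 27.8 CPM in control, and Cyb561, an ascorbate-regenerating granule cytochrome, higher in Gcg-only cells, at 53.2 and 23.4 CPM. The first came to -0.51 with unscaled totals and the second to 0.80 on totals without hormone genes, both under 2-fold. In insulin-only cells none of the 7 was called. Of all genes, 6.25% were called lower over all endocrine cells and 9.07% higher in Gcg-only cells.

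Among 21 substrate genes, calls went both ways. Over all endocrine cells, where 6.67% of all genes were called higher and 6.25% lower, 18 were measured, 9 called higher (Chga, Chgb, Vgf, Cartpt, Tac1, Cck, Gip, Sct and Ghrl) and 7 lower (Gcg, Sst, Ppy, Pyy, Ins1, Ins2 and Scg2). Chromogranin A (Chga) was at 99946 CPM in Isl1CKO and 10103 CPM in control Gcg-only cells, a log2 ratio of 3.31. Scg2, secretogranin II, was at 414 CPM in Isl1CKO and 3022 CPM in control endocrine cells. Amylin (Iapp), which Pam amidates, was at 43793 CPM in Isl1CKO and 90138 CPM in control insulin-only cells, a log2 ratio of -1.04 that came to 0.09 with unscaled totals.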

How the data were processed

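The deposited files are whole-number UMI counts, 1 unfiltered matrix per library with 46984 features and 6794880 barcodes. The submitters' processing notes name STARsolo in STAR 2.7.3a, the GRCm38.p6 build and Seurat 4.3.0.1. No filter or normalization by the authors is in the deposited counts.

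Cells were kept with 1000 or more UMIs, 500 or more genes and 15% or less mitochondrial UMIs. Scrublet ran per library through scanpy 1.11.5, and Leiden clusters (leidenalg 0.10.2, resolution 1) served only to leave out acinar-like, macrophage-like and low-UMI clusters, named from marker lists. Of the cells past the filter, 242 Isl1CKO and 50 control cells were acinar-like or macrophage-like, and 480 and 53 were in the low-UMI cluster. UMIs were summed per library and hormone group (at least 50 cells to compare, except where a smaller number is given). CPM were scaled with TMM factors (edgeR 4.0.16, R 4.3.3), with DESeq2 1.42.0 size factors, unscaled totals and totals without hormone genes as alternatives. Log2 ratios had 1 count added, with exact conditional Poisson 95% intervals; CPM and ratios of UMIs have exact Poisson and shares exact Clopper-Pearson intervals. Genes under 5 CPM in both sums were not measured. The scripts were tested on simulated data. There is 1 library per genotype, cells are not replicates, and no test between genotypes was made.

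The enzymes, gene lists, markers and alternatives were chosen with earlier results of these data known. All 6 enzymes were read in every comparison and those called are named, but values of those not called are given for some comparisons only. Of the other listed genes, the known partners of the granule convertases and only some of those called are named. Splits of cells without hormone, the comparisons of cells at 20% or more or 20% to 50% insulin, the insulin ranges by sex and the male and female comparison were added after the data had been seen. Sex was read from Xist and Y-linked UMIs per cell. Levels of different enzymes are not compared with each other, since 3′ capture can differ between genes.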

Additional observations from a re-analysis of the deposited data

Results flagged for a closer look

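The ratio of Pam between genotypes had opposite signs in male and female cells. Over all endocrine cells the log2 ratio of Isl1CKO over control was 0.74 in male cells (0.71 to 0.77), from 1499 CPM in Isl1CKO and 898 CPM in control, and -0.19 in female cells (-0.23 to -0.16), from 809 CPM in Isl1CKO and 925 CPM in control. Neither passed the 2-fold limit. The difference between the sexes was not tested, as there is 1 library per genotype. Male and female cells, if called rightly, come from different animals of each pool, and the control is labelled as male.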

How the results depend on the processing

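No called ratio of the 6 enzymes changed sign under the alternatives run between hormone groups and genotypes. Pcsk1 in insulin-only cells ranged from -2.36 to -0.98 on the log2 scale and Cpd from 1.10 to 2.81. With unscaled totals 2650 genes were called over all endocrine cells, against 1346 with TMM factors, 6395 against 1678 in insulin-only cells, with 5 enzymes against 2, and 3574 against 1788 between control insulin-only and Gcg-only cells. With genes at 1 CPM or more, 2510 genes were called over all endocrine cells. In Gcg-only cells 1 enzyme was called, and 2 with unscaled totals, in female cells or at 1 CPM or more, and 0 without hormone genes. In male cells 1 enzyme in place of 2 was called over all endocrine cells, and 1 in place of 2 in cells without hormone. Between control insulin-only and Gcg-only cells 1 enzyme in place of 2 was called without hormone genes and with each cell weighted alike. The cause was not tested, apart from scaling, which by its construction moved all log2 ratios by 0.54 (all), 1.13 (insulin-only), 0.27 (Gcg-only) and -0.33 (no hormone) with unscaled totals and by -0.20, -0.21, -0.39 and -0.36 without hormone genes. DESeq2 factors moved them by at most 0.12 in size, with -0.12 in cells without hormone. Low counts limit the Pcsk1 ratio in Gcg-only cells, with 6 Isl1CKO and 4 control UMIs, out of 2369645 and 14859068 UMIs summed. The control sum is deep, with an upper limit of 0.689 CPM on unscaled totals. Depth limits the group of 87 control cells without hormone. No paired analysis was possible because each genotype has 1 library.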

Other observations

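Across 9 sums of hormone groups in both libraries, the genes whose log2 level followed each enzyme most closely among 7151 genes were, by Pearson's r, as follows. For Pcsk1 they were Gm5860 (0.97), Tmem30a (0.96) and Iapp (0.96), which encodes amylin. For Pcsk2 they were Mat1a (0.98), Zfp266 (0.97) and Calca (0.96), the calcitonin gene. Cpe was followed by Smim4 (0.97), Cdk9 (0.97) and Tmed3 (0.96), and Cpd by Smad1 (0.98), Wdsub1 (0.96) and Samd8 (0.95). Pam was followed by Fhit (0.94), Cenpq (0.92) and Hnf1aos1 (0.91), and Furin by Peli1 (0.95), Pttg1ip (0.94) and Tspan15 (0.94). The sums share 2 libraries and their depth, and these are descriptions with no test.

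The Isl1CKO library also held 173 acinar-like cells deep enough to thin, of which 7.51% had a Pcsk1 UMI and 29.5% a Cpd UMI, at a median depth of 7416 UMIs before thinning.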
